A study of Mus musculus with 12 samples.

Results

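The 8 genes described here carry out the last steps of sugar digestion and the first steps of sugar absorption in the small intestine. They are Sis, Lct, Mgam and Treh, which code for enzymes of the brush border, Slc5a1, Slc2a2 and Slc2a5, which code for sugar transporters, and Khk, which codes for the first enzyme of fructose breakdown. The genes were chosen by name, with symbols assigned to the Ensembl identifiers from the GENCODE M21 annotation. All 8 were among the 46078 genes listed in the count files and among the 15823 genes that had enough counts to be tested. The rule itself uses no measured value, but the list was drawn up with earlier results of these data known.

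The tissue was proximal ileal epithelium, scraped from male C57BL/6 mice, and total RNA was sequenced. The mice received sesame oil vehicle or TCDD at 3, 10 or 30 µg/kg by oral gavage every 4 days, 7 gavages in all, from 28 to 56 days of age, and each of the 4 groups held 3 libraries. TCDD, a chlorinated dioxin, is a persistent ligand of the aryl hydrocarbon receptor (AhR), a transcription factor that switches on genes such as Cyp1a1. All groups shared the strain, the sex, the diet and the oil given by gavage. The labels do not give replicate numbers, nor do they say whether each library came from 1 animal, so p-values measure the spread between these libraries.

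Starch is cut in the gut lumen and, like table sugar, at the brush border, the dense layer of microvilli on the absorptive face of enterocytes. Sucrase-isomaltase and maltase-glucoamylase release glucose from starch fragments, sucrase also splits sucrose into glucose and fructose, lactase splits the milk sugar lactose, and trehalase splits trehalose into a pair of glucose molecules. Glucose and galactose then enter the cell with sodium through SGLT1, the product of Slc5a1, while fructose enters through GLUT5, the product of Slc2a5, and the sugars leave towards the blood largely through GLUT2, the product of Slc2a2. Ketohexokinase, the product of Khk, phosphorylates fructose inside the cell. Several of these genes are known to follow a daily rhythm in rodent intestine, with levels that anticipate feeding at night.

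The libraries held 11695887 to 22180274 reads assigned to genes, so that 3 counts, taken as the floor of detection, corresponded to 0.135 to 0.257 CPM, that is, counts scaled to a common library size. Induction of Cyp1a1 followed the labels, from 23.0 ± 4.27 CPM in the vehicle group to 2979 ± 334 CPM at 30 µg/kg (SD, n = 3 each). The enterocyte genes summed to at least 26100 CPM in every library. Gata4, a transcription factor of the upper small intestine, lay at 143 to 170 CPM, while the distal ileum gene Fabp6 (ileal bile acid-binding protein) was at most 0.306 CPM in 9 libraries. In the 3 libraries of the 3 µg/kg group Fabp6 was 22.9 to 38.3 CPM, and its part in any difference between that group and the others was not tested.

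The libraries also differed in their clock genes. A clock score was computed for each library as the mean standardized level of Dbp, Tef, Hlf, Per1, Per2, Per3, Nr1d1, Nr1d2 and Ciart minus that of Arntl, Npas2, Clock and Nfil3, the opposite arm of the circadian loop. Of the 12 libraries, 6 scored from 1.201 to 2.14 and are called clock-high here, and 6 scored from -2.28 to -0.749 and are called clock-low. The clock-high libraries were vehicle replicates 2 and 3, replicate 1 of the 3 µg/kg group, replicate 1 of the 10 µg/kg group and replicates 1 and 2 of the 30 µg/kg group. These are sets of libraries defined by measured values and not groups of the study. Between the sets the log2 difference ran from 0.80 (Nr1d1) to 5.28 (Dbp) over the genes that raise the score. Over the opposite arm it ran from -0.19 (Clock) to -2.96 (Arntl). The sets were drawn from these same genes, so no test of them is given. Tissues were collected within a window of a few hours after lights on according to the study's methods, and the hour of each animal was not given in the sources used here.

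All 8 genes were well measured, with 1209 to 296346 counts in a library. Together they took 1.85% to 3.50% of all gene counts, and all 6 clock-high libraries (2.80% to 3.50%) lay above all 6 clock-low libraries (1.85% to 2.35%). Levels of different genes were compared per kilobase of exon. In the vehicle group Mgam was the highest at 1361 ± 351 CPM per kb, the 25th of 15747 genes with a known length. Slc5a1 followed at 1152 ± 463 and Sis at 914 ± 306 CPM per kb, and the vehicle libraries of these 3 genes overlapped in their values, so that the order among them lay within their spread. Lct came next at 508 ± 12.1 CPM per kb, below every vehicle library of Mgam, Slc5a1 and Sis. Treh stood at 163 ± 3.94, Slc2a2 at 122 ± 55.9, Khk at 84.6 ± 5.10 and Slc2a5 at 65.4 ± 32.1 CPM per kb (SD, n = 3 each). The vehicle values of Slc2a2 reached from below those of Khk to those of Treh, and Slc2a5 and Khk also overlapped, so neighbours at this end of the order did not differ beyond their spread.

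The SDs of the vehicle group fell into distinct sizes. Lct, Treh and Khk varied little between vehicle libraries, with coefficients of variation of 2.39%, 2.41% and 6.03%. The other 5 genes varied by 25.8% to 49.0% of their mean. In each of those 5 genes the same library, vehicle replicate 1, was the low one, and it was the only clock-low library of the group.

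**Figure D1:**
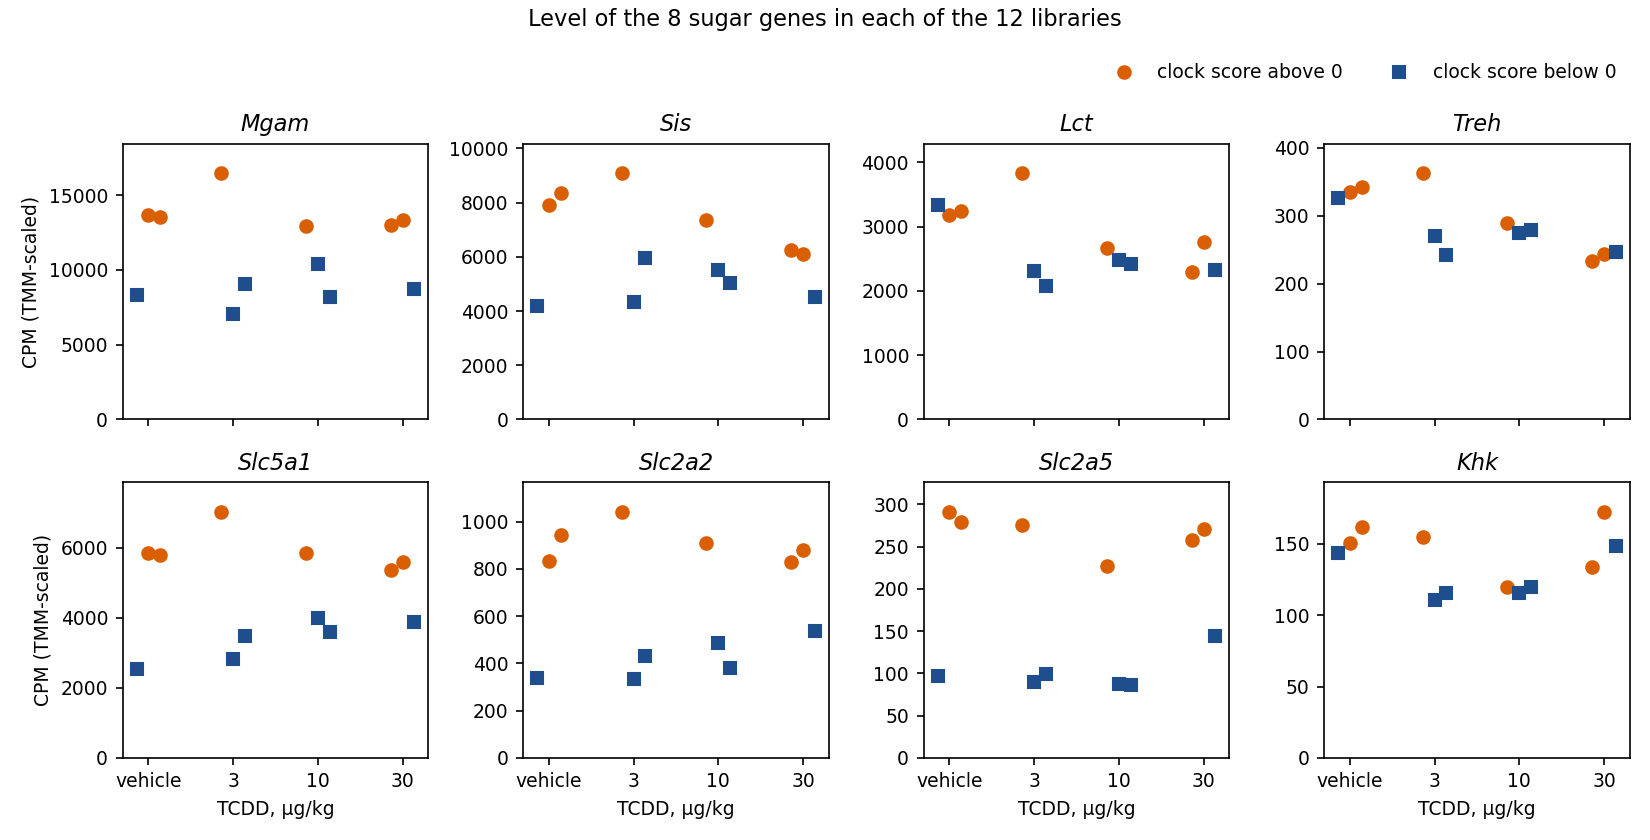
TMM-scaled CPM (vertical axis, from 0) of each gene in each library against TCDD dose (horizontal axis), with clock-high libraries as orange circles and clock-low libraries as blue squares. In Mgam, Sis, Slc5a1, Slc2a2 and Slc2a5 every circle lies above every square, whereas in Lct, Treh and Khk the circles and squares overlap.

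The comparison between clock states asked whether the sugar genes moved with the clock genes of the same libraries, with dose group held in the model. Of the 8 genes, 5 were called higher in the clock-high libraries, namely Slc2a5, Slc2a2, Slc5a1, Mgam and Sis, and none was called lower. A call required 1.5-fold or more together with an adjusted p below 0.05 in the quasi-likelihood test of edgeR. Among all genes tested 3.36% were called in this comparison and 1.95% were called higher. The median log2 change of the 8 genes was 0.69, against -0.013 over all genes tested.

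The fructose transporter Slc2a5 changed most. Its levels in the vehicle group were 96.9, 291 and 280 CPM in replicates 1 to 3, and the first of these is the clock-low library. The 3 µg/kg libraries gave 276, 90.2 and 99.5 CPM. Those of the 10 µg/kg group gave 228, 87.6 and 86.1 CPM, and those of the 30 µg/kg group 258, 271 and 145 CPM. The clock-high libraries thus lay between 228 and 291 CPM whatever the dose, the clock-low libraries lay between 86.1 and 145 CPM, and the sets did not overlap. The difference was 1.33 on the log2 scale, 2.52-fold (SE 0.091, adjusted p = 6.71e-07, edgeR). The highest clock-low value belonged to 30 µg/kg replicate 3, the library whose clock score was nearest to 0.

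Slc2a2, the transporter of the basolateral face, was measured at 340, 832 and 945 CPM in the vehicle group and at 1042, 335 and 432 CPM at 3 µg/kg. At 10 µg/kg it stood at 910, 485 and 381 CPM, and at 30 µg/kg at 828, 882 and 536 CPM. Again the clock-high libraries (828 to 1042 CPM) were all above the clock-low libraries (335 to 536 CPM). The log2 difference was 1.14, 2.20-fold (SE 0.12, adjusted p = 2.08e-05, edgeR).

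Slc5a1, the sodium-glucose cotransporter, gave 2532, 5858 and 5793 CPM in the vehicle group and 7030, 2821 and 3474 CPM at 3 µg/kg. The values were 5843, 3993 and 3609 CPM at 10 µg/kg and 5353, 5604 and 3895 CPM at 30 µg/kg. The clock-high libraries began at 5353 CPM and the clock-low libraries ended at 3993 CPM. The log2 difference was 0.87, 1.82-fold (SE 0.11, adjusted p = 1.50e-04, edgeR).

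Both large disaccharidases moved the same way by a smaller factor. Mgam had a median of 13410 CPM over the clock-high libraries (range 12910 to 16450) and of 8531 CPM over the clock-low libraries (7052 to 10420), a log2 difference of 0.71 (SE 0.10, adjusted p = 4.10e-04, edgeR). Sis had medians of 7631 CPM (6121 to 9080) and 4766 CPM (4194 to 5963), a log2 difference of 0.68 (SE 0.10, adjusted p = 5.14e-04, edgeR). The sets did not overlap in either gene, although in Sis the gap between them was narrow. Without vehicle replicate 1 the change of Sis was 0.58 on the log2 scale, just under 1.5-fold, at an adjusted p of 3.40e-03.

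The 5 genes were higher in every clock-high library than in every clock-low library. The same order within each of the 4 doses follows from this and is no further result. Over all genes tested, 2.63% were higher without overlap between the 6 and the 6 libraries and 7.64% were higher without overlap within each of the doses.

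Lct, Treh and Khk were not called. Lct had a median of 2969 CPM in the clock-high and of 2373 CPM in the clock-low libraries. The log2 difference was 0.25 with a 95% interval from 0.015 to 0.49 (adjusted p = 0.184, edgeR). Treh differed by 0.14 on the log2 scale (adjusted p = 0.282) and Khk by 0.16 (adjusted p = 0.244), and the upper bounds of their 95% intervals stood at 0.31 and 0.33, below a 1.5-fold change. The libraries of both states overlapped in all 3 genes. Without 3 µg/kg replicate 1 the log2 differences of Lct, Treh and Khk were 0.061, 0.023 and 0.063.

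Other features of the libraries also moved with clock state. The summed level of 8 enterocyte and brush border genes was 30400 to 38400 CPM in clock-high and 26100 to 31900 CPM in clock-low libraries, with 0 of the 8 called and 4 of the 8 at an unadjusted p under 0.05 in edgeR. Their median log2 difference was 0.16. The largest was that of Anpep, at 0.43 (adjusted p = 0.00307, edgeR), under 1.5-fold. The summed levels of the goblet, Paneth, smooth muscle, fibroblast, T cell and B and plasma cell lists overlapped between the states, with 0 genes of these lists called, although the 5 B and plasma cell genes had a median log2 difference of 0.91. Of 4 distal ileum genes 2 were called in opposite directions. Slc10a2, the ileal bile acid uptake transporter, was higher in the clock-high libraries by 1.07 on the log2 scale (adjusted p = 0.0231), and Slc51b, a subunit of the bile acid exporter, differed by -0.90 (adjusted p = 1.47e-05, edgeR). The summed level of the distal list overlapped between the states (161 to 269 and 213 to 339 CPM). The part of cell composition and of position along the gut in the difference of the 5 genes was not tested, and in bulk tissue fewer cells of a type and less RNA per cell cannot be told apart.

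**Figure D2:**
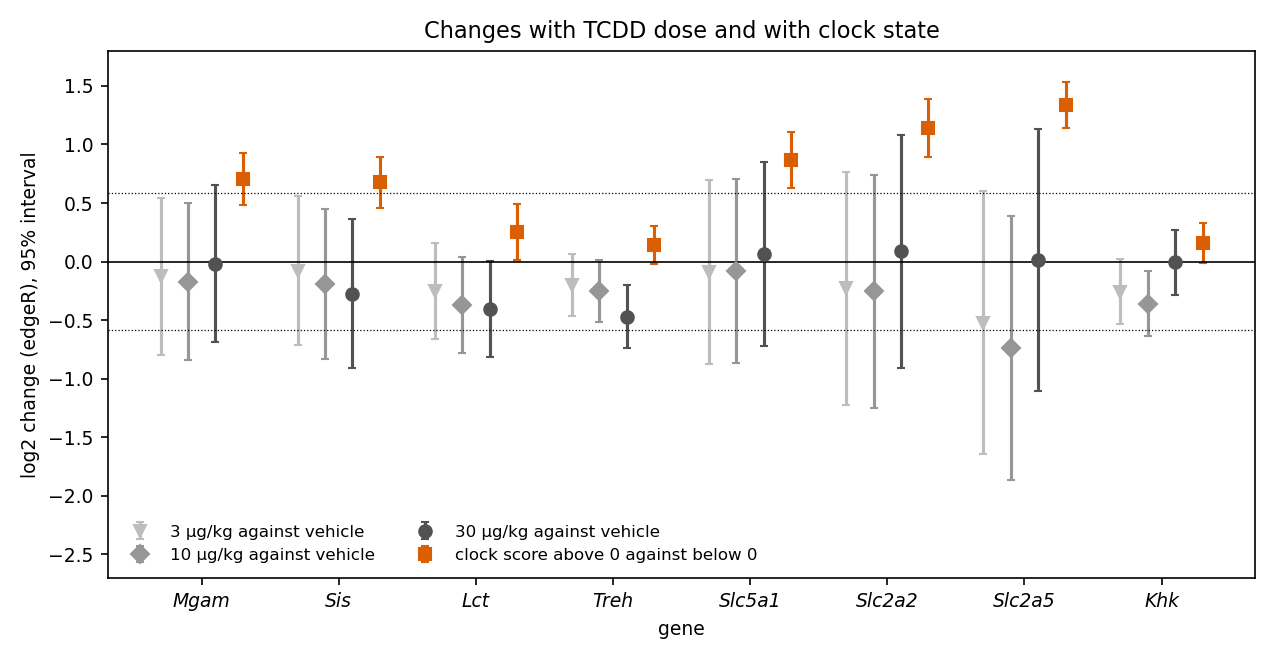
log2 change of each gene (vertical axis, points, with 95% intervals as bars) for 3, 10 and 30 µg/kg TCDD against vehicle (grey symbols) and for clock-high against clock-low libraries beside dose (orange squares), with dotted lines at a 1.5-fold change. The clock intervals of Slc5a1, Slc2a2 and Slc2a5 lie wholly above the dotted line, whereas the grey intervals of those genes are wide and cross 0.

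The comparisons with vehicle asked whether TCDD altered these genes at each dose. None of the 8 genes was called by edgeR at 3, 10 or 30 µg/kg, against 0.228%, 0.613% and 3.97% of all genes tested. At an unadjusted p under 0.05 there were 0, 1 and 1 of the 8. DESeq2 and limma-voom also called 0 of the 8 at each dose. Each of these comparisons used the same 3 vehicle libraries. Between neighbouring doses 0 of the 8 were called (0.158% of all genes for 10 against 3 and 2.77% for 30 against 10), with 0 and 1 at an unadjusted p under 0.05 and 0 called by DESeq2 or limma-voom.

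Trehalase came nearest to a dose response. Treh was measured at 326, 335 and 342 CPM in the vehicle group and at 363, 270 and 242 CPM in the 3 µg/kg group. The values were 289, 274 and 280 CPM in the 10 µg/kg group and 233, 244 and 247 CPM in the 30 µg/kg group. All libraries of 10 and of 30 µg/kg lay below all vehicle libraries, as did 11% and 12.5% of all genes tested. Those of 30 µg/kg also lay below those of 10 µg/kg, with a log2 change of -0.22 (adjusted p = 0.332, edgeR). The share of all genes in that last order was not counted. At 30 µg/kg Treh differed from vehicle by -0.47 on the log2 scale, 1.39-fold lower (SE 0.12, adjusted p = 0.0427, edgeR), which is short of the 1.5-fold asked of a call. The change over the dose range, fitted as a straight line over the order of the 4 groups, was -0.44 (SE 0.12, adjusted p = 0.0459, edgeR). With the clock score as a covariate this change was -0.43 (adjusted p = 0.0205, edgeR), and with the library index it was -0.44 (adjusted p = 0.0792, edgeR). In the exact two-sided Jonckheere-Terpstra permutation test of dose order p was 0.0246 over all libraries and 0.131 within clock states, and neither passed after adjustment over all genes (0.232 and 0.449). Over 24 other settings the adjusted p at 30 µg/kg ran from 0.00172 to 0.117, and it was under 0.05 in 13 of them.

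Lct, the lactase gene, had the tightest vehicle group, at 3337, 3182 and 3244 CPM. The 3 µg/kg libraries gave 3826, 2302 and 2077 CPM, those of 10 µg/kg gave 2660, 2483 and 2417 CPM, and those of 30 µg/kg gave 2294, 2756 and 2329 CPM. The libraries of 10 and 30 µg/kg were all below the vehicle libraries, while 1 library of 3 µg/kg was above them. The log2 change was -0.37 at 10 µg/kg (adjusted p = 0.357) and -0.40 at 30 µg/kg (95% interval -0.81 to 0.006, adjusted p = 0.237, edgeR). The spread was largest in the 3 µg/kg group, with an SD of 952 CPM against 77.8 to 258 CPM in the other groups. Without 3 µg/kg replicate 1 the change at 30 µg/kg was -0.40 (adjusted p = 0.0220, edgeR). The change at 3 µg/kg was then -0.58 (adjusted p = 0.0275, edgeR), and both were still under 1.5-fold. Of 24 other settings this was the only 1 with an adjusted p under 0.05 for Lct at 30 µg/kg. The library left out was the only clock-high one of the 3 µg/kg group. Without it that group was all clock-low, while the vehicle group held 2 clock-high libraries.

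Khk, the ketohexokinase gene, was 144, 151 and 162 CPM in the vehicle group and 155, 111 and 116 CPM at 3 µg/kg. It was 120, 116 and 120 CPM at 10 µg/kg, below all vehicle libraries, and 134, 172 and 148 CPM at 30 µg/kg, where it overlapped with vehicle. The log2 change at 10 µg/kg was -0.36 (unadjusted p = 0.0149, adjusted p = 0.209, edgeR), and from 10 to 30 µg/kg it was 0.35 (adjusted p = 0.133). All 3 libraries lay below vehicle in 3 of the 8 genes at 10 µg/kg (Lct, Treh and Khk) and in 2 of the 8 at 30 µg/kg (Lct and Treh). Over all genes tested the same was found in 11% and 12.5% at those doses.

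The 5 genes that moved with clock state gave wide intervals against dose. At 30 µg/kg the log2 changes were 0.012 for Slc2a5, 0.086 for Slc2a2, 0.067 for Slc5a1, -0.018 for Mgam and -0.28 for Sis, with adjusted p from 0.637 to 0.992 in edgeR. The 95% interval of Slc2a5 ran from -1.11 to 1.13 and that of Slc2a2 from -0.91 to 1.08. In this model, which leaves the clock out, a change of about 2-fold either way was thus not excluded for them. The mix of clock states differed between doses. The vehicle and 30 µg/kg groups each held 2 clock-high libraries, and the 3 and 10 µg/kg groups each held 1. At 10 µg/kg Slc2a5 changed by -0.74 on the log2 scale without the clock in the model and by -0.29 with clock state as a term (adjusted p = 0.507 and 0.251). Slc5a1 changed by -0.077 without it and by 0.28 with it (adjusted p = 0.939 and 0.380).

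For the dose trend 0 of the 8 genes were called by edgeR, DESeq2 or limma-voom, with Lct and Treh at an unadjusted p under 0.05 in edgeR. The background was 3.29% of all genes. In the exact dose order tests 0 of the 8 passed over all libraries (1.89% of all genes) or within clock states (0.961%), and Treh was the only one with an unadjusted p under 0.05, in the test over all libraries.

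Of 53 genes of neighbouring steps tested, 3 were called at 30 µg/kg, 5.66% against 3.97% of all genes. Slc5a9, a sodium-dependent transporter of mannose and other sugars, fell from 69.2 ± 8.51 CPM in the vehicle group to 39.3 ± 3.61 CPM (log2 change -0.82, adjusted p = 0.00155), and it was the only gene called of 9 other sugar transporters tested. Galk1, the galactokinase gene, rose from 9.70 ± 0.84 to 18.9 ± 4.13 CPM (log2 change 0.96, adjusted p = 0.0104), 1 of 13 genes of fructose and galactose breakdown. Gcg, which codes for glucagon-like peptides of enteroendocrine cells, rose from 5.84 ± 0.28 to 9.71 ± 1.18 CPM (log2 change 0.74, adjusted p = 0.0101, edgeR, SD with n = 3 throughout), 1 of 11 genes of sugar sensing and control. All 3 were also called for the dose trend, and Galk1 for 30 against 10 µg/kg. Gpi1, of the list of fructose and galactose breakdown, rose by 0.56 on the log2 scale at 30 µg/kg (adjusted p = 0.00723, edgeR). It was not called because the change was under 1.5-fold. None of 6 genes of glucose production and release was called at 30 µg/kg in edgeR, with 1 at an unadjusted p under 0.05. Of 3 other starch and disaccharide enzymes and of 11 regulators of disaccharidase genes 0 were called, with 1 of each at an unadjusted p under 0.05. The same comparison moved Paneth cell genes, with 5 of 5 called higher and summed levels of 1650 to 2190 CPM against 513 to 762 CPM in the vehicle group. It also called higher 3 of 6 goblet cell genes and 2 of 5 T cell genes, and lower 3 of 4 pancreatic acinar genes and 1 of 5 proximal small intestine genes, Slc40a1, the iron exporter (log2 change -1.06, adjusted p = 0.0134, edgeR). The part of these marker lists in the values of the sugar genes was not tested. Over 302 protein-coding genes under 1000 nt of exon the median log2 change was 0.51, and with each library's trend over exon length removed Treh changed by -0.54 on the log2 scale (adjusted p = 0.0266).

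Between clock states 9 of the 53 were called, 17.0% against 3.36% of all genes. Of 9 other sugar transporters 3 were higher in the clock-high libraries, namely Slc5a4b (log2 difference 0.66, adjusted p = 8.23e-05), Slc5a4a (0.81, 0.00134) and Slc2a7 (0.66, 7.50e-04). Slc5a4a and Slc5a4b code for SGLT3 proteins and Slc2a7 for a hexose transporter, GLUT7. Of 6 genes of glucose production and release 3 were higher, Pck1 by 1.85 on the log2 scale (adjusted p = 2.44e-04), Fbp1 by 0.88 (0.0116) and Slc37a4 by 0.63 (0.00168). Pck1 and Fbp1 code for enzymes of gluconeogenesis and Slc37a4 for the glucose 6-phosphate carrier of the endoplasmic reticulum. Of 11 genes of sugar sensing and control Klf15 was higher by 1.48 on the log2 scale (adjusted p = 1.89e-04) and Tas1r2, a sweet taste receptor subunit, by 1.94 (0.00643), while Arrdc4 was lower (log2 difference -0.79, adjusted p = 1.47e-04, all edgeR). Tas1r2 was at most 1.24 CPM in any library. None of 13 genes of fructose and galactose breakdown was called, with 7 at an unadjusted p under 0.05. None of 11 regulators of disaccharidase genes was called, with 6 at an unadjusted p under 0.05.

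The ratio of clock-high to clock-low levels was set side by side over doses, from 1 or 2 libraries on each side. For Slc2a5 it was 2.95, 2.91, 2.62 and 1.83 in the vehicle, 3, 10 and 30 µg/kg groups. For Slc2a2 it was 2.62, 2.72, 2.1 and 1.59, and for Slc5a1 2.30, 2.23, 1.54 and 1.41. In these 3 genes the ratio was lowest at 30 µg/kg, where the only clock-low library had the score nearest to 0 and the highest level of its state in Slc2a5 and Slc2a2. Sis gave 1.94, 1.76, 1.40 and 1.37, and Mgam 1.63, 2.05, 1.39 and 1.51. The slope over dose was tested for a difference between clock states in 1 model. None of the 15823 genes passed in edgeR or limma-voom, with 609 genes at an unadjusted p under 0.05 in edgeR, and DESeq2 called 2 genes, none of the 8. Slc5a1 (log2 difference of slopes over the dose range -0.79, unadjusted p = 0.00794) and Slc2a2 (-0.72, unadjusted p = 0.0108) were the only members at an unadjusted p under 0.05, and their adjusted p was 1.00.

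**Figure D3:**
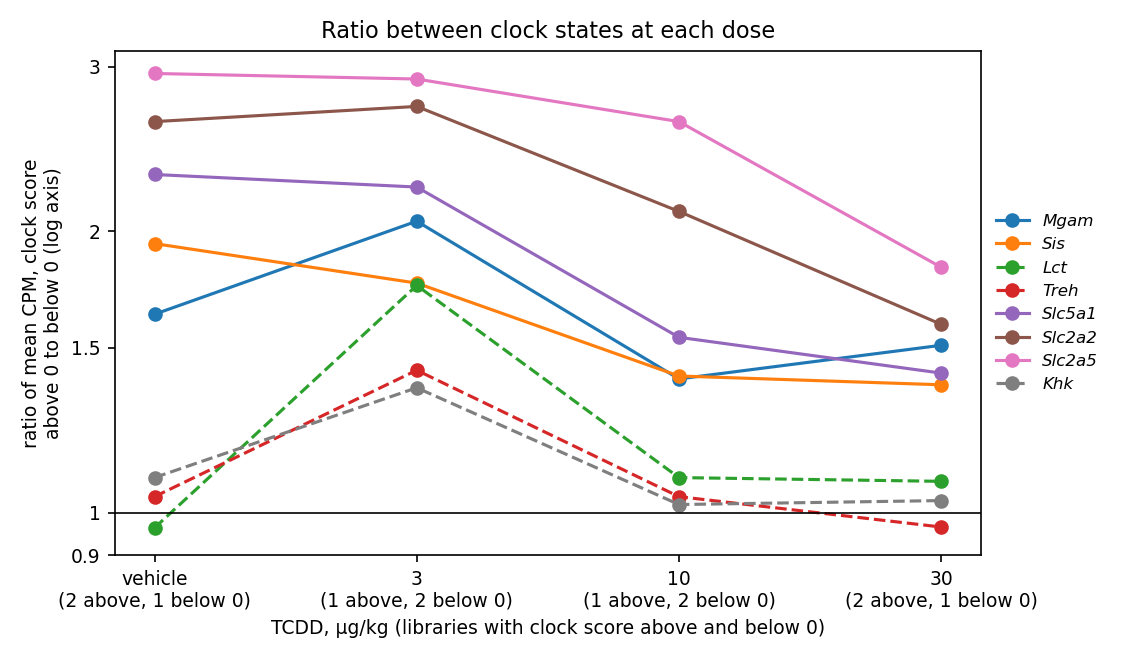
Ratio of mean CPM in clock-high to clock-low libraries (vertical log axis) at each dose (horizontal axis, with the number of libraries on each side), solid for the 5 genes called between clock states and dashed for the other genes. The solid lines stay at 1.37 or above at every dose, and the dashed lines lie between 0.963 and 1.75, with their peak at 3 µg/kg.

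The spread of each gene over the 12 libraries was divided into a part between the 4 dose groups, a further part between clock states and a remainder. This is a description with no test, and because clock states were not balanced over doses the dose part takes in some of the clock part. Clock state took 72.9% to 82.6% of the squared deviations of log2 CPM in Slc2a5, Sis, Mgam, Slc2a2 and Slc5a1, against a median of 8.62% over all genes tested. At most 2.03% of genes had a larger share than any of these. Dose groups took 63.5% in Treh, 57.5% in Khk and 38.2% in Lct, with a median of 38.7% over all genes tested. The remainder in Slc2a5 was 3.38%.

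**Figure D4:**
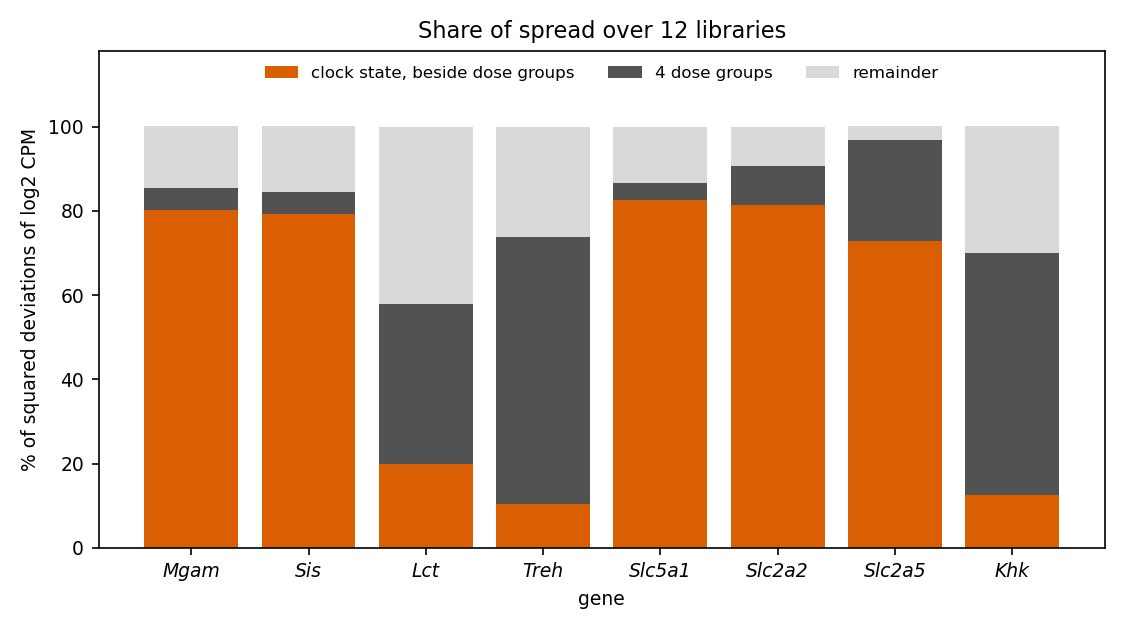
Share of the squared deviations of log2 CPM over 12 libraries (vertical axis, %) taken by clock state beside dose (orange), by the 4 dose groups (dark grey) and left over (light grey) for each gene. Orange fills 72.9% or more of 5 bars and at most 19.8% of the bars of Lct, Treh and Khk.

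For each gene the other genes with the most similar course over the 12 libraries were found, by the root mean square (RMS) difference of centred log2 CPM. For Slc2a5 these were Per1 (RMS 0.18) and Cipc (0.18), a gene of the clock score itself and a gene for a CLOCK-interacting protein. Rundc3b (0.12) was near to Slc5a1, and Atp1b1 (0.095), a sodium pump subunit, and Noct (0.11), the nocturnin gene, were nearest to Mgam. Slc2a2 was nearest to Glud1 (0.097) and Mertk (0.11), and Sis to Itga6 (0.097) and Pacsin2 (0.11). Lct was nearest to Pdxk (0.066) and Ano6 (0.081), Treh to Creb3l2 (0.076) and Ifnlr1 (0.079), and Khk to Gm11127 (0.072) and Baiap2l2 (0.082). Among the 8 genes the closest pairs were Lct with Treh (0.12) and Slc5a1 with Mgam (0.15), while the median RMS to all genes tested was 0.34 to 0.79. These values are descriptions over 12 libraries that share dose and clock state, with no test.

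Promoters were read for all 8 genes from RefSeq (GRCm38.p6), as the 250 bases before the start of transcription, and 3 short motifs were searched on either strand. CACGTG is the canonical E-box bound by CLOCK and BMAL1, TTATGTAA is the D-box bound by DBP, TEF and HLF, and GCGTG is the core of the AhR response element. None of these motifs contains another. CACGTG was present in Slc5a1 at position -143, in Mgam at -131 and in Khk at -71, counted so that -1 is the last base before the start. GCGTG was present in Slc5a1 at -118 and in Mgam at -80. TTATGTAA was in none of the 8, and Sis, Lct, Treh, Slc2a2 and Slc2a5 held none of the 3 motifs in this window. Among 32851 promoters 6.02% held CACGTG, 0.819% TTATGTAA and 28.2% GCGTG. Among 13884 promoters of tested genes the shares were 7.88%, 0.483% and 42.6%. As a description, CACGTG was held by 10.2% of 295 promoters of genes called higher in the clock-high libraries. It was held by 8.21% of 195 promoters of genes called lower. GCGTG was held by 41.7% and 30.8% of these sets. The promoters with an E-box are shown with their motifs in capitals, beside that of Slc2a5, the gene with the largest clock difference. They lie on the plus strand at chr5:33103969-33104218 (Slc5a1), chr6:40628581-40628830 (Mgam), chr5:30921309-30921558 (Khk) and chr4:150119094-150119343 (Slc2a5), and the last pair reaches into the gene as GENCODE draws it.
Slc5a1: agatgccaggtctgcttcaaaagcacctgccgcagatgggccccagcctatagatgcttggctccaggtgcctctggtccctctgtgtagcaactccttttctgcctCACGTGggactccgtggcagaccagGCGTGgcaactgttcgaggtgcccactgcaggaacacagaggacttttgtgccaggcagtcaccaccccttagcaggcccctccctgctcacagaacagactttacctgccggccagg
Mgam: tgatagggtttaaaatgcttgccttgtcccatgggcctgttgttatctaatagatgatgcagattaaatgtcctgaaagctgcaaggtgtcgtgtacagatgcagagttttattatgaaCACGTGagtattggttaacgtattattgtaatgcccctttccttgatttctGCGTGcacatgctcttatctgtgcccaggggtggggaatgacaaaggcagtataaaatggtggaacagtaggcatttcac
Khk: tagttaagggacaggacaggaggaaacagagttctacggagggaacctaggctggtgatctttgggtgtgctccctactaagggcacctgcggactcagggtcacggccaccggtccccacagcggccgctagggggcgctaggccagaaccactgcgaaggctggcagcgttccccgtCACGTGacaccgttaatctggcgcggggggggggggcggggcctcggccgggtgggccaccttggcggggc
Slc2a5: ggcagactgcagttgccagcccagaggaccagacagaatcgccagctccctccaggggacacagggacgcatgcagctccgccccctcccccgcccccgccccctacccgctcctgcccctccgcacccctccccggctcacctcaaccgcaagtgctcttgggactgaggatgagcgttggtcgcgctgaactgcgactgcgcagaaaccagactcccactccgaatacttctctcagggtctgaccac
A match of letters is no evidence that a factor binds there, and of the 3 genes with an E-box Slc5a1 and Mgam were called between clock states while Khk was not.

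Positions are given on GRCm38 (GENCODE M21). Sis is on chromosome 3 from 72888557 to 72967863 and Slc2a2 on chromosome 3 from 28697903 to 28731359. Slc5a1 is on chromosome 5 from 33104219 to 33162870 and Khk on chromosome 5 from 30921431 to 30931248. Lct is on chromosome 1 from 128284756 to 128328318, Mgam on chromosome 6 from 40628831 to 40769123, Treh on chromosome 9 from 44673233 to 44686305 and Slc2a5 on chromosome 4 from 150119283 to 150144169. Treh overlaps the antisense gene Phldb1, Slc5a1 overlaps 5033423K11Rik on the other strand and Gm15936 on its own, and Slc2a2 overlaps 1700112D23Rik on the other strand. The strand setting of the counting was not given in the sources used here, so reads in those overlaps could not be assigned with certainty.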

How the data were processed

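RNA sequencing of 12 libraries in 4 groups of 3 was used, each library in a file of raw counts per gene deposited by the authors. Per the submitters' processing notes the tools were FastQC 0.11.3, Trimmomatic 0.33, TopHat2 2.1.0, SAMtools 1.2.0, HTSeq 0.6.1 and DESeq on GRCm38. The annotation release and the strand setting are not given in the sources used here. Besides the genes, reads in no feature were 25.0% to 30.1% of each library and reads with no unique place 31.4% to 38.8%, the latter highest at 30 µg/kg, and they were left out.

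Symbols were taken from GENCODE M21. Genes were filtered with filterByExpr, scaled by TMM and tested in edgeR 4.0.16 (quasi-likelihood, 1 model of 4 groups) under R 4.3.3, with Benjamini-Hochberg adjustment over 15823 genes. A call needed an adjusted p under 0.05 and at least 1.5-fold, except for the interaction, where the adjusted p alone counted. Only the fold is the study's threshold, and the study set it beside a posterior probability instead of an adjusted p. SE is the log2 change divided by the square root of F. log2 CPM used a prior count of 2. Clock state entered beside dose groups. Exact Jonckheere-Terpstra tests enumerated 369600 arrangements, or 32400 within clock states, and counted ties as equal shares. The fits and the exact test were tested on simulated data. DESeq2 1.42.0 and limma 3.58.1 were alternatives, with other scalings, filters, covariates and left-out libraries. The 8 genes, the gene lists and the tests were chosen with earlier results of these data known. All 8 members are named, list genes where called, and the 2 nearest genes per member, of which 1 is not reported here. Cyp1a1, Fabp6, Gata4, Slc10a2, Slc51b, Slc40a1, Anpep and Gpi1 were named after their values were seen.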

Additional observations from a re-analysis of the deposited data

Results flagged for a closer look

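Groups of 3 libraries were not examined for single libraries that stand apart, but the 6 clock-high and the 6 clock-low libraries were, in 16 sets of values that mix doses. In 4 of the 16 the gap from the highest library to the next, as a share of the whole range, was beyond Dixon's limit for 6 values, and chance flags about 1 in 20 sets. The library of 3 µg/kg replicate 1 was the highest of the clock-high libraries in Mgam (16450 CPM, gap 0.777 of the range) and in Slc5a1 (7030 CPM, 0.699). The library of 30 µg/kg replicate 3 was the highest of the clock-low libraries in Slc2a5 (145 CPM, 0.771). Vehicle replicate 1 was the highest of the clock-low libraries in Lct (3337 CPM, 0.678).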

How the results depend on the processing

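The counts of members called were the same under 13 alternative settings, where each applied, and with each of 12 libraries left out, except between clock states, where 5 became 4 without vehicle replicate 1 (Sis). DESeq2, limma-voom, other scalings and filters, library index or clock as covariate, the groups compared alone and removal of the exon length trend were tried, and clock state as a covariate was chosen after seeing the data. Taking the clock state from Dbp alone gave the same split. Of 798 single values 53 changed sign, none of them of a called change. At 3 µg/kg the clock score as covariate gave log2 changes of 0.19 for Sis, 0.094 for Mgam, 0.24 for Slc5a1 and 0.18 for Slc2a2, and clock state 0.15, 0.066, 0.19 and 0.11. At 10 µg/kg the score gave 0.15, 0.15, 0.38 and 0.29 in the same order, and clock state 0.076, 0.086, 0.28 and 0.16. At 30 µg/kg Slc2a5 was -0.00695 with upper-quartile scaling, -0.14 with the library index and -0.014 with the length trend removed, Slc2a2 was -0.023 with the index, and Mgam was 0.000617 in limma-voom and 0.024 with the length trend removed. Leaving out libraries gave at 3 µg/kg Sis from -0.41 to 0.14, Slc5a1 from -0.59 to 0.15, Slc2a2 from -0.88 to 0.064 and Mgam from -0.56 to 0.11. At 10 µg/kg it gave Slc5a1 from -0.37 to 0.11 and Slc2a2 from -0.70 to 0.024. At 30 µg/kg it gave Slc5a1 from -0.23 to 0.25, Slc2a2 from -0.24 to 0.36, Slc2a5 from -0.34 to 0.26, Mgam from -0.21 to 0.15 and Khk from -0.11 to 0.080. The order of the levels per kilobase was the same by longest transcript.

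The number of genes called among all genes tested also varied with the settings. Genes called at 3 µg/kg numbered 36, against 6 to 162 over the alternatives, 84 in DESeq2 and 162 without 3 µg/kg replicate 1. At 10 µg/kg there were 97, against 45 to 262 and 262 in DESeq2. For 10 against 3 µg/kg there were 25, against 9 to 43, for 30 against 10 µg/kg 439, against 188 to 599, and for the trend 520, against 297 to 722. The interaction gave 0 genes, 46 with no filter and 2 in DESeq2. No paired analysis was possible because the labels give no replicate numbers, but each library index occurs once a dose and was fitted as a covariate, with which the adjusted p of Treh was 0.0744 at 30 µg/kg and 0.0792 for the trend. The causes were not tested, and groups of 3 libraries limit what can be seen.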
